A study of Homo sapiens with 2 samples.

Results

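Heat shock proteins and their J-domain partners were examined on 2 expression arrays of KYSE170-luc, a human esophageal squamous carcinoma line that carries luciferase. One array came from cells given an empty vector and the other from cells given an expression plasmid for SOX17, and both sets of cells were taken at 12 h. SOX17 is a transcription factor of endoderm and endothelium, and the comparison asks which transcripts differ after it is introduced. The genes were chosen by symbol, with earlier results of these data known. Taken were symbols beginning with DNAJA, DNAJB, DNAJC, HSPA, HSPB, HSPD1, HSPE1, HSPH1 or HSP90A, and CHORDC1 and HSF1. HSPA5, DNAJB9, HSPBP1, HSPBAP1 and pseudogenes were left out. This gave 71 genes with 168 probe sets, of 19775 genes with a probe set of their own. Of the 71 genes, 66 are protein-coding and 5 are long noncoding RNA genes named after a chaperone neighbour. The results below are about the 66 protein-coding genes with their 162 probe sets, and the other 5 are given apart. HSPA1A, HSPA1B, HSPA8 and DNAJC25 had only probe sets shared with other genes and were not analysed here.

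Each group had 1 array, so no difference below has a replicate check and no p-value was computed. The brightest probe set of a gene, by mean log2 intensity, represents it, and the gene counted as measured when that probe set reached the floor of 95, the 60th percentile of all values, on both arrays. The log2 ratio is the SOX17 over the empty vector intensity, so that a negative value means a lower intensity on the SOX17 array. The median log2 ratio of the 10034 measured genes was 0.03. The spread between probe sets of the same gene gave an SD of 1 log2 ratio of 0.37 for genes in the lowest tertile of level, 0.32 for those of the middle tertile and 0.26 for the brightest genes. It measures error within the arrays, not the variation of separate cultures. The poly-A control transcripts read higher with SOX17 on 24 of 24 probe sets (median log2 ratio 0.57), and their part in the results was not tested. SOX17 had 2 probe sets below the floor on both arrays, with intensities of 4.5 and 83.8 on one and 19.1 and 6.5 on the other (empty vector first), so these values leave the labels unchecked. Of 8 listed squamous markers 5 had a probe set of their own, and these 5 were measured. They ranged from KRT5, at 247.5 and 273, to SFN, at 50352.6 and 52641.3. Of 16 leukocyte, fibroblast and endothelial markers, 2 were measured, COL1A1 (780.2 and 845.1) and CD79A (112 and 96.9), and PTPRC, DCN, PECAM1 and CDH5 lay below the floor.

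Chaperones of the HSP70 class bind exposed hydrophobic stretches of unfolded proteins and release them in a cycle driven by ATP. J-domain proteins bring clients to HSP70 and stimulate its ATPase, HSP110 proteins exchange its nucleotide, HSP90 completes the folding of kinases and receptors, and small heat shock proteins hold unfolded proteins until they can be refolded. When unfolded proteins accumulate, the transcription factor HSF1 forms trimers and binds heat shock elements, repeats of the unit GAA in alternating orientation, in front of the heat-inducible members. Squamous carcinoma cells, like most tumour cells, carry abundant cytosolic chaperones.

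Promoters that hold a heat shock element are shown because it is the sequence that HSF1 is known to bind. Windows from 250 bases before to 50 bases after the gene start were taken from RefSeq (GRCh38.p14) and matched 58 of the 66 genes. The element was searched on both strands as 3 units in a row, TTC, GAA and TTC, with any 2 bases between neighbouring units. It occurred in 133 of 27305 windows in all (0.487%) and in 4 of 58 windows of the chaperones, those of CHORDC1, DNAJA1, DNAJB6 and HSPA6. These are 4 of 16 windows of heat-inducible members (25%), and 0 of 42 windows of the other members held it, so most heat-inducible members lack these letters in this window too. The bases before the gene start of 3 of them follow, 5′ to 3′ on the strand of the gene, with the matches in capitals.
CHORDC1 (chr11:90223050-90223299, minus strand): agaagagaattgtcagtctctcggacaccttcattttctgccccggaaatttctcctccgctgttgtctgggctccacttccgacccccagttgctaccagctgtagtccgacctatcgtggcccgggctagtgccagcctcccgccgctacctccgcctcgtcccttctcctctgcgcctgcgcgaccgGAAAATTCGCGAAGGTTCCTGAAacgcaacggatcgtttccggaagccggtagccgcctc
DNAJB6 (chr7:157336754-157337003, plus strand): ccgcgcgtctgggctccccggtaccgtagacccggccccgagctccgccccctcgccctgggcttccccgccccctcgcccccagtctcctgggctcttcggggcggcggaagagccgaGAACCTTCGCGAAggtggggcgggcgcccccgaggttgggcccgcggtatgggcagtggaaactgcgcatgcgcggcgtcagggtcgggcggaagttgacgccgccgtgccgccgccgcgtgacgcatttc
HSPA6 (chr1:161524290-161524539, plus strand): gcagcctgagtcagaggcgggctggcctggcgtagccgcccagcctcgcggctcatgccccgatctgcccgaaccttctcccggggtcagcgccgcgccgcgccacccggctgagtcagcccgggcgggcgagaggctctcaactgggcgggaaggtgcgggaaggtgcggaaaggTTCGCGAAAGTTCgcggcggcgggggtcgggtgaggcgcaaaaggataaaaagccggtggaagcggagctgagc

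In the CHORDC1 promoter 3 matches overlap, from base -60 to base -38 relative to the gene start. The HSPA6 match lies at -74 to -62 and that of DNAJB6 at -131 to -119. In DNAJA1 the match, GAACTTTCCAGAA, lies just behind the gene start, from base 4 to base 16 (chr9:33025276-33025288, plus strand). A pair of neighbouring units with the same spacing, which every 3-unit match contains, was found in 12 of 58 chaperone windows (20.7%) and in 13.7% of all windows. A motif bound by SOX proteins, AACAAT or its reverse complement ATTGTT, was found in 3 of 58 windows (5.17%), those of DNAJA4, DNAJC8 and HSPB6, and in 10.3% of all windows. The ER stress element, CCAAT and CCACG with any 9 bases between them on either strand, was found in 0 of 58 windows and in 0.0806% of all windows. These matches are a description of the letters in these windows.

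Of the 66 genes, 51 were measured on both arrays. Few differed by much: 3 were higher with SOX17 by 1.5-fold or more, where 3.78% of all measured genes were, and 1 was lower by that much, where 3.19% were. The 3 higher genes were DNAJC18, DNAJB2 and DNAJC15, and the lower one was HSPA6. All 4 lay in the lowest tertile of level. After centring on the median ratio DNAJB14 and HSPA13 passed too, which made 3 higher and 3 lower, and with a floor at the 75th percentile the counts were 0 and 0. Of the 51, 28 had a ratio below 0 (45.4% of all measured genes did) and 23 a ratio above 0 (54.6% did), and their median was -0.05 beside 0.03 for all measured genes. In RNA from whole cultures, fewer cells with a transcript and less of it per cell cannot be told apart. DNAJC18 was the 1 member that lay more than 2 SD of its tertile from 0, as 4.62% of all measured genes did. At the threshold of 1.5-fold, DNAJC15 lay just inside (1.55-fold higher) and DNAJB14 just outside (a log2 ratio of -0.58, where 1.5-fold is 0.585).

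**Figure D1:**
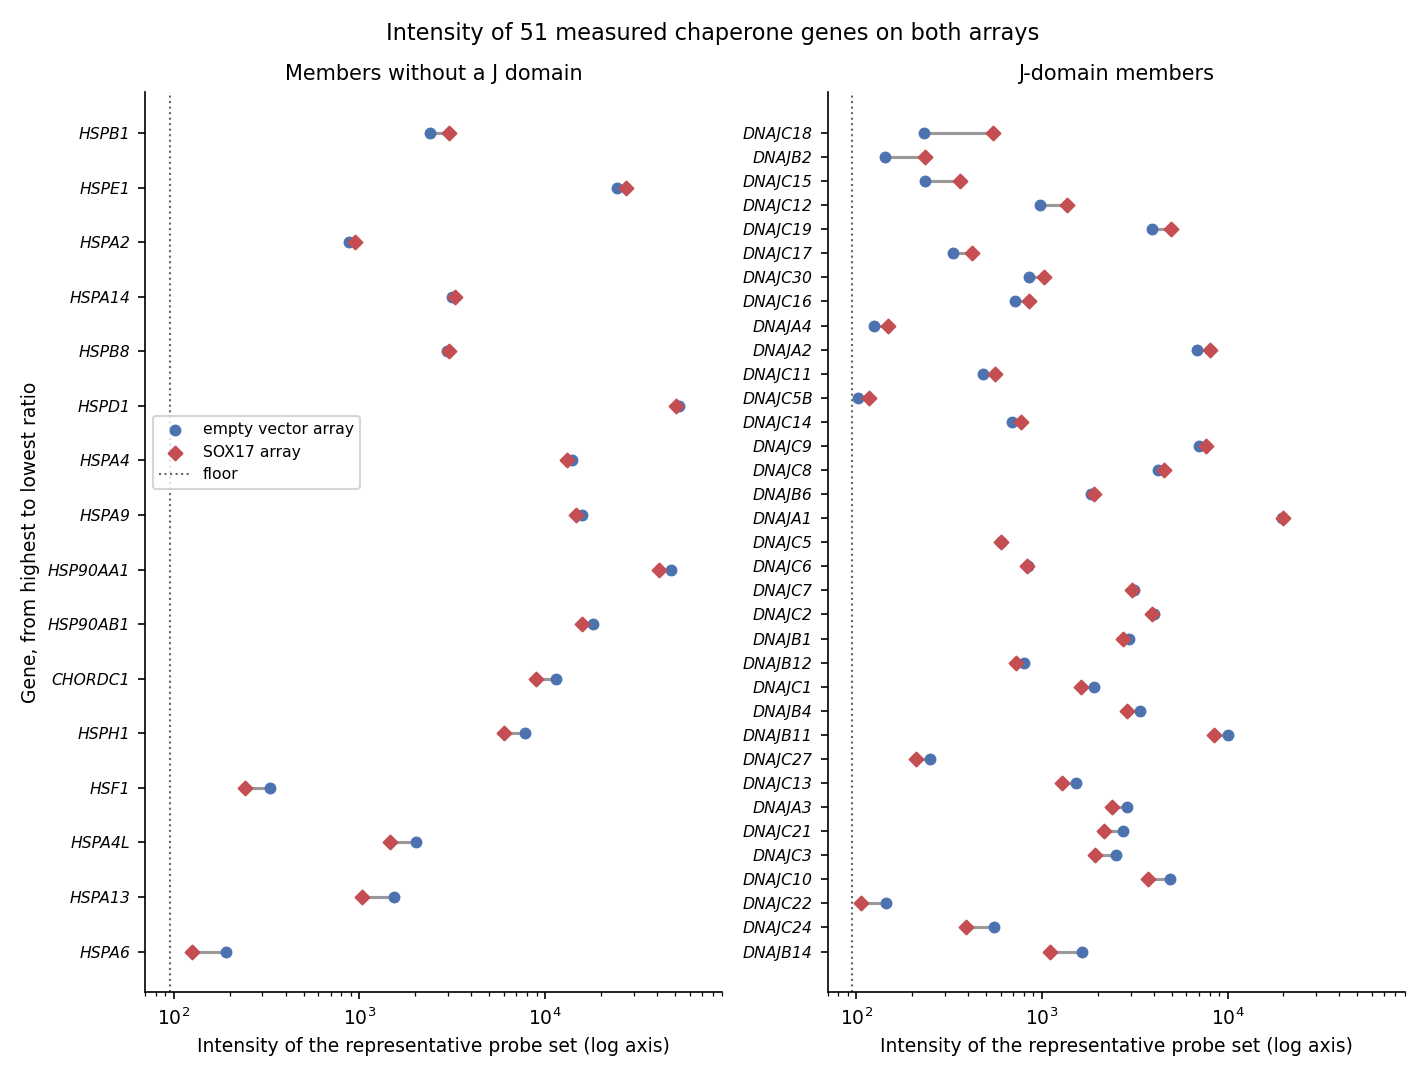
Intensity of the representative probe set of each of the 51 measured genes on the empty vector array (circles) and the SOX17 array (diamonds), on a log axis, with genes without a J domain on the left and J-domain genes on the right, from the highest to the lowest ratio. The dotted line is the floor of 95. DNAJC18, at 231.7 and 545.8, has the widest gap upward, and HSPA6 at the bottom left reads 191.5 and 124.7.

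HSF1, the regulator of the heat shock response, read 329 with the empty vector and 243.5 with SOX17 (log2 ratio -0.43). It was lower by less than 2 SD of its tertile. Its other probe set, at 93.8 and 86.7, lay below the floor.

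Of 16 measured members without a J domain, 11 had a ratio below 0, where 45.4% of all measured genes did, and their median was -0.15. Only HSPA6 was lower by 1.5-fold. The SD of 1 ratio is not the error of a median over 16 genes, and whether the median differs from that of all measured genes was not tested. The list of 19 heat-inducible genes overlaps this group, and of its 16 genes with a probe set of their own 15 were measured, 9 of them below 0 and 6 above (median -0.11). The other 36 measured members had 19 below 0 and 17 above (median -0.03). The heat-inducible median was below 0 under every alternative run, between -0.17 and -0.03. That of the other members was too, between -0.06 and -0.004. Without _x_at and _s_at probe sets the medians were alike, -0.028 over 10 heat-inducible members and -0.027 over 30 others.

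Among genes with an HSPA symbol 5 of 7 measured had a ratio below 0 (median -0.10), where 45.4% of all measured genes did. This count includes HSPA4 and HSPA4L, which are described below with the HSP110 class. With no floor, which brings in HSPA12A, HSPA12B and HSPA1L from below it, the median was -0.28 over 10 genes. It was -0.33 over 6 genes when _x_at and _s_at probe sets were dropped, so these medians are of other sets of genes. HSPA6, a strictly stress-inducible HSP70, read 191.5 with the empty vector and 124.7 with SOX17 (1.54-fold lower). It rests on 1 measured probe set near the floor, and its other probe set read 25 and 90, in the opposite order. HSPA6 has a near-identical pseudogene copy, and whether the probe set tells them apart was not tested. HSPA13, which resides at the endoplasmic reticulum (ER), read 1529.9 and 1038.6 (log2 ratio -0.56), and its other probe set lay at -0.16. HSPA9, the mitochondrial HSP70, read 15853.7 and 14767.6, and its 3 measured probe sets lay between -0.10 and -0.01. HSPA2, best known for its part in sperm formation, read 879.1 and 950.1 (0.11), and HSPA14, which works with the ribosome, had 3 probe sets between 0.07 and 0.15. HSPA12A, HSPA12B and HSPA1L lay below the floor on both arrays.

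The HSP110 class is made up of HSPH1, HSPA4 and HSPA4L, the nucleotide exchange factors of cytosolic HSP70. HSPH1 read 7759.1 with the empty vector and 6013.5 with SOX17 (log2 ratio -0.37), and its other 2 probe sets lay at -0.38 and -0.04. HSPA4L read 2010.2 and 1469.1 (-0.45), with the other probe set at -0.37. HSPA4, which is made without stress, read 13886.1 and 13162.1 (-0.08), and its 4 probe sets ranged from -0.21 to 0.06. All measured probe sets of HSPH1 and HSPA4L thus lay below 0, and those of HSPA4 lay on both sides.

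Both HSP90 genes read slightly lower on the SOX17 array. HSP90AA1, the inducible form, read 47545.5 and 41332.7 (log2 ratio -0.20), and all 4 of its probe sets were below 0, from -0.25 to -0.01. HSP90AB1, the constitutive form, read 18172.6 and 15751 (-0.21), and its 3 probe sets lay between -0.25 and -0.21. CHORDC1, an HSP90 cochaperone, read 11403.2 and 8885.1 (-0.36), but its other probe set, at 110.9 and 125.5, lay at 0.18. These differences are smaller than 2 SD of 1 ratio at this level.

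HSPD1 and HSPE1 form the mitochondrial folding chamber and its lid, and they are neighbours whose promoter windows share 204 bases. HSPD1 read 52497.5 with the empty vector and 50802.1 with SOX17 (log2 ratio -0.05), and its 3 measured probe sets ranged from -0.36 to 0.14. HSPE1 read 24399 and 27138.1 (0.15) on its 1 probe set. The 2 genes lay on opposite sides of 0, within the error of 1 ratio.

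Of the 7 small heat shock protein genes 2 were measured, and neither was lower. HSPB1, the widely expressed form, read 2412.7 with the empty vector and 3032.1 with SOX17 (1.26-fold higher), and HSPB8, a partner of the cochaperone BAG3 in selective autophagy, read 2959.7 and 3055.2. The other probe set of HSPB8 read 79 and 153.9 and was not measured. HSPB2, HSPB3, HSPB6, HSPB7 and HSPB9, most of them known from muscle or testis, lay below the floor on both arrays, with intensities from 4.3 to 65.9 on their representative probe sets.

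The J-domain genes had no common direction. Of 42 genes 35 were measured, 18 above 0 and 17 below, with a median of 0.00 that turned to -0.03 after centring on the median ratio or with the floor raised to the 75th percentile, and to 0.13 when _x_at and _s_at probe sets were dropped. Their range ran from -0.58 (DNAJB14) to 1.24 (DNAJC18). The 4 genes of class A, which carry the zinc finger of the bacterial DnaJ, ranged from -0.27 to 0.25. DNAJA1, the main cytosolic member, read 19699.7 and 19839.6, and its other probe set lay at 0.13. DNAJA4 read 124.5 and 148 (log2 ratio 0.25) and rests on 1 measured probe set. DNAJA3, the mitochondrial member, read 2874.3 and 2381.2 (-0.27), while its other probe set lay just below 0.

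In class B, 5 of 7 measured genes had a ratio below 0, where 45.4% of all measured genes did. The class B median was -0.14, but with the mean over probe sets it was 0.03. DNAJB1, the main stress-inducible J protein of the cytosol, read 2941.5 with the empty vector and 2725.9 with SOX17 (log2 ratio -0.11), and its other probe set lay at 0.18. DNAJB4 read 3374 and 2887.7 (-0.22), with 0.02 on its other probe set, and DNAJB6, which keeps polyglutamine proteins from aggregating, read 1839.9 and 1914.5 (0.06). DNAJB2, which delivers ubiquitinated clients to the proteasome, read 143.3 and 233.8 (1.63-fold higher) on its 1 probe set. DNAJB5 read 103 and 82 and fell short of the floor on the SOX17 array. The 3 measured class B genes of the heat-inducible list (DNAJB1, DNAJB4 and DNAJB6) each differed by less than 1.5-fold.

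Of 9 measured J-domain genes listed as acting at the ER, 7 had a ratio below 0, where 45.4% of all measured genes did. Their median was -0.24. At 1.5-fold 0 were lower and 1 was higher. The SD of 1 ratio is not the error of a median over 9 genes. Whether this median differs from that of all measured genes was not tested. DNAJC3, which serves as cochaperone of the ER HSP70 and inhibits the kinase PERK, read 2506.9 with the empty vector and 1925.5 with SOX17, and its 4 probe sets all lay below 0, from -0.67 to -0.38. DNAJC10, an ER reductase with a J domain, read 4921.5 and 3719.8 (log2 ratio -0.40), with its other 2 measured probe sets at -0.14 and -0.12. DNAJB11, another ER cochaperone, read 9989.9 and 8472.8 (-0.24) on its 1 probe set. DNAJB14, anchored in the ER membrane, read 1648.3 and 1101.2 (-0.58), and its other 2 probe sets lay at -0.20 and -0.11. Its paralogue DNAJB12 had a representative probe set at -0.14, while its other 3 lay between 0.24 and 0.31. DNAJC1 likewise had probe sets on both sides, from -0.22 to 0.18. The remaining gene below 0 was DNAJC22, at 144.9 and 105.8 (-0.45), on 1 measured probe set near the floor.

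The higher gene was DNAJC18, a further J protein of the ER membrane. It read 231.7 with the empty vector and 545.8 with SOX17 (2.36-fold higher), the 1 member past 2-fold, which 0.419% of all measured genes were. The value rests on 1 measured probe set, since one of its others reached the floor only with SOX17 (61.8 and 108.6) and the last lay below it on both arrays (90.3 and 37.5). These disagree in direction with each other. The other gene of the list above 0 was DNAJC16, at 713.4 and 856.9 (log2 ratio 0.26), with its second measured probe set at 0.09.

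**Figure D2:**
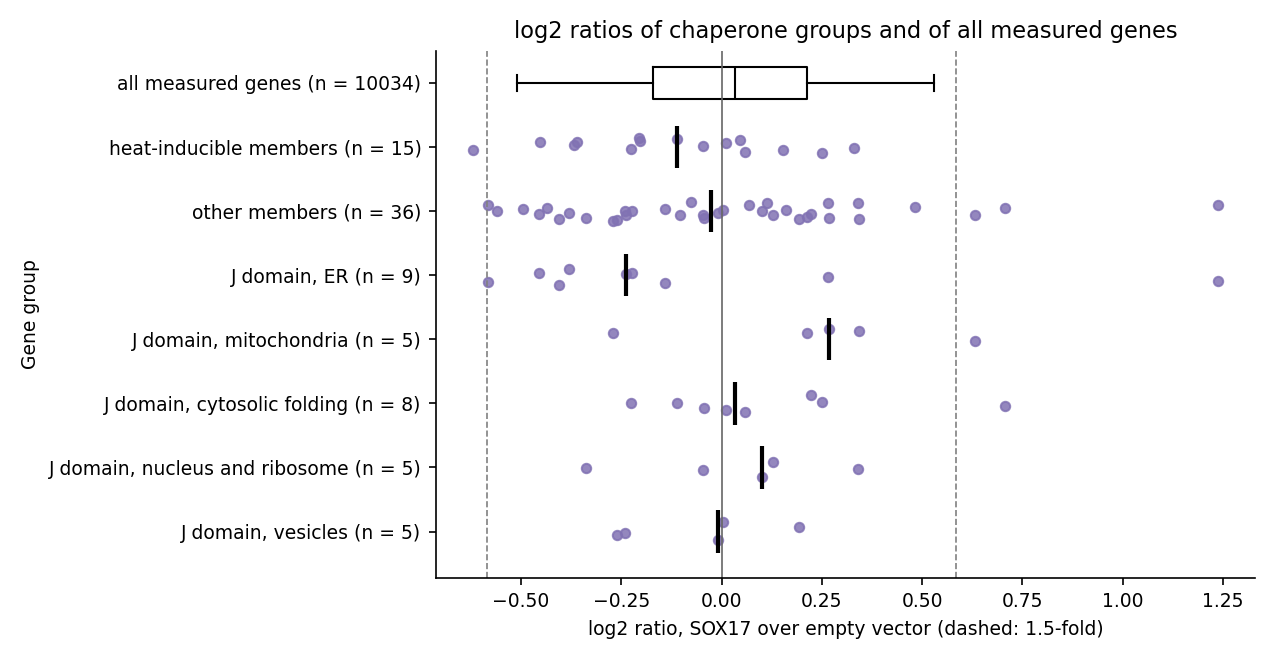
Log2 ratios (SOX17 over empty vector) of the measured members by group, 1 point per gene with the median as a black bar, below a box of all 10034 measured genes (quartiles, with whiskers from the 5th to the 95th percentile). The ER group has its median at -0.24, the mitochondrial group at 0.27 and the heat-inducible members at -0.11, and the whiskers of all genes end at -0.51 and 0.53. A gene can stand in several groups.

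Among mitochondrial J-domain genes 4 of 5 measured had a ratio above 0, where 54.6% of all measured genes did. Their median was 0.27, which was 0.03 with the mean over probe sets. With 5 genes, a common direction of this group was not tested. DNAJC19 and DNAJC15 belong to the import motor of the inner membrane. DNAJC15 read 233.6 with the empty vector and 362 with SOX17 (1.55-fold higher) on 1 measured probe set, while its other 2 read 55.8 and 68.9, and 81.9 and 35.8. DNAJC19 read 3898.3 and 4944.1 (log2 ratio 0.34), with 0.21 on its other probe set. DNAJC30 and DNAJC11 had 2 measured probe sets each, of opposite sign. The fifth gene was DNAJA3, described above. DNAJC4 (75.4 and 147.1) and DNAJC28 (83.8 and 156.7) reached the floor only with SOX17 on their representative probe sets, while another probe set of DNAJC4 did so only with the empty vector (104 and 85.2).

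Most other class C genes differed little. DNAJC12, a cochaperone of the aromatic amino acid hydroxylases, read 972.2 and 1356.8 (log2 ratio 0.48), and its 3 probe sets all lay above 0, from 0.33 to 0.48. DNAJC24, which takes part in making diphthamide on elongation factor eEF2, read 550.6 and 390.6 (-0.50) on 1 measured probe set. DNAJC9, a histone chaperone, read 7003.1 and 7654.4 (0.13), with -0.08 on its other measured probe set. Of the 5 nuclear and ribosomal genes 3 lay above 0 and 2 below (median 0.10), and DNAJC21, a factor of ribosome maturation, read 2724.9 and 2154.3 with measured probe sets from -0.42 to 0.04. Of the 5 measured vesicle genes 2 lay above 0 and 3 below (median -0.01). DNAJC5, the cysteine string protein of secretory vesicles, had the widest disagreement of any member: 1 probe set lay at -0.67 (463 and 290.8) and the other 2 at 0.00.

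Several measured probe sets were available for 31 members, and they show how far a ratio repeats on other probes of the same gene. All probe sets lay below 0 in 12 of the 31 genes, where 25.5% of all genes with several measured probe sets had this pattern, and all lay above 0 in 7, where 23.1% did. In the remaining 12 the signs were mixed. The 12 genes below 0 were HSP90AA1, HSP90AB1, HSPH1, HSPA4L, HSPA9, HSPA13, DNAJA3, DNAJB14, DNAJC3, DNAJC7, DNAJC10 and DNAJC27. The 7 above 0 were HSPA14, DNAJA1, DNAJA2, DNAJC8, DNAJC12, DNAJC16 and DNAJC19. Of these 31 members, 0 reached 1.5-fold on the representative probe set. Of all measured genes 3.78% were higher and 3.19% lower by that much. The share among all genes with several measured probe sets is not given, so the 0 is not read as a trait of the chaperones. Centring on the median ratio of all measured genes would lower each ratio by 0.03, which would take DNAJA1 and DNAJA2 out of the group above 0 and bring DNAJB4 and DNAJC5 into the group below 0. Probe sets of one gene are read from the same RNA and are not replicates.

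**Figure D3:**
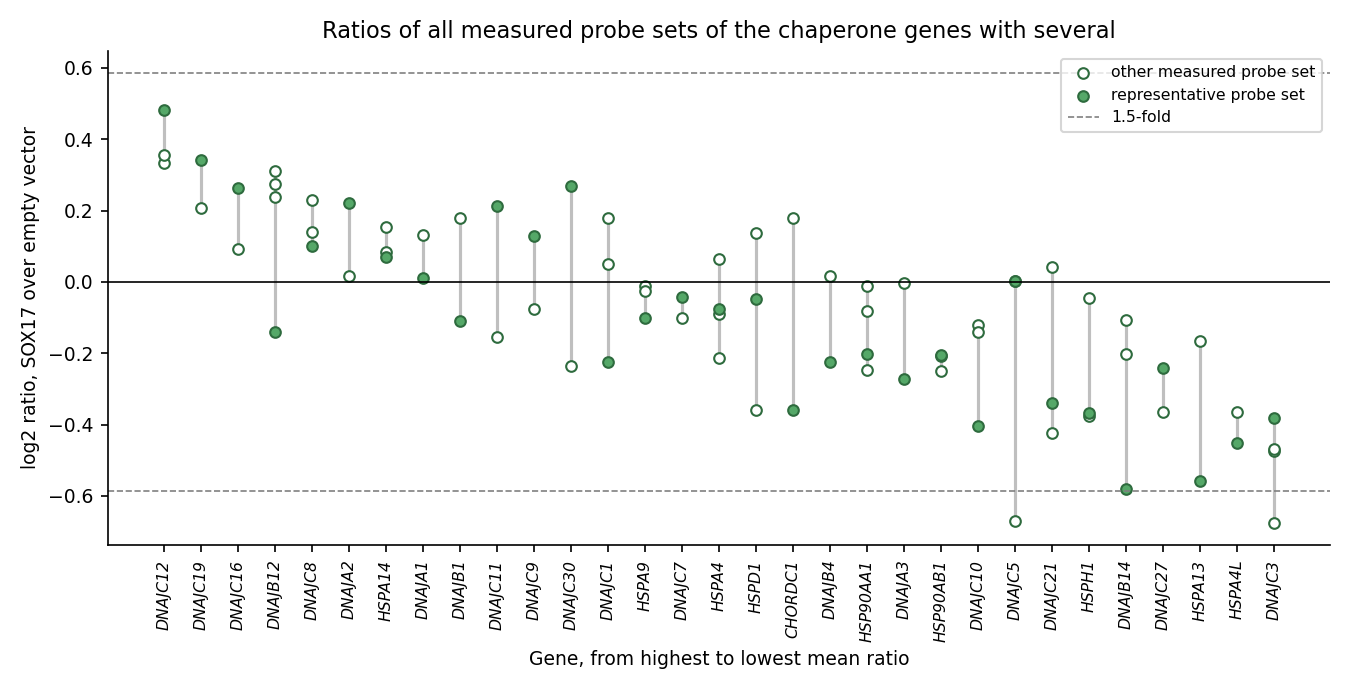
Log2 ratios (SOX17 over empty vector) of every measured probe set of the 31 members with several, 1 column per gene from the highest to the lowest mean ratio, with filled points for the representative probe set and dashed lines at 1.5-fold. DNAJC12 at the left has 3 points between 0.33 and 0.48, DNAJC3 at the right has 4 between -0.67 and -0.38, and DNAJC5 spans from -0.67 to 0.00.

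**Figure D4:**
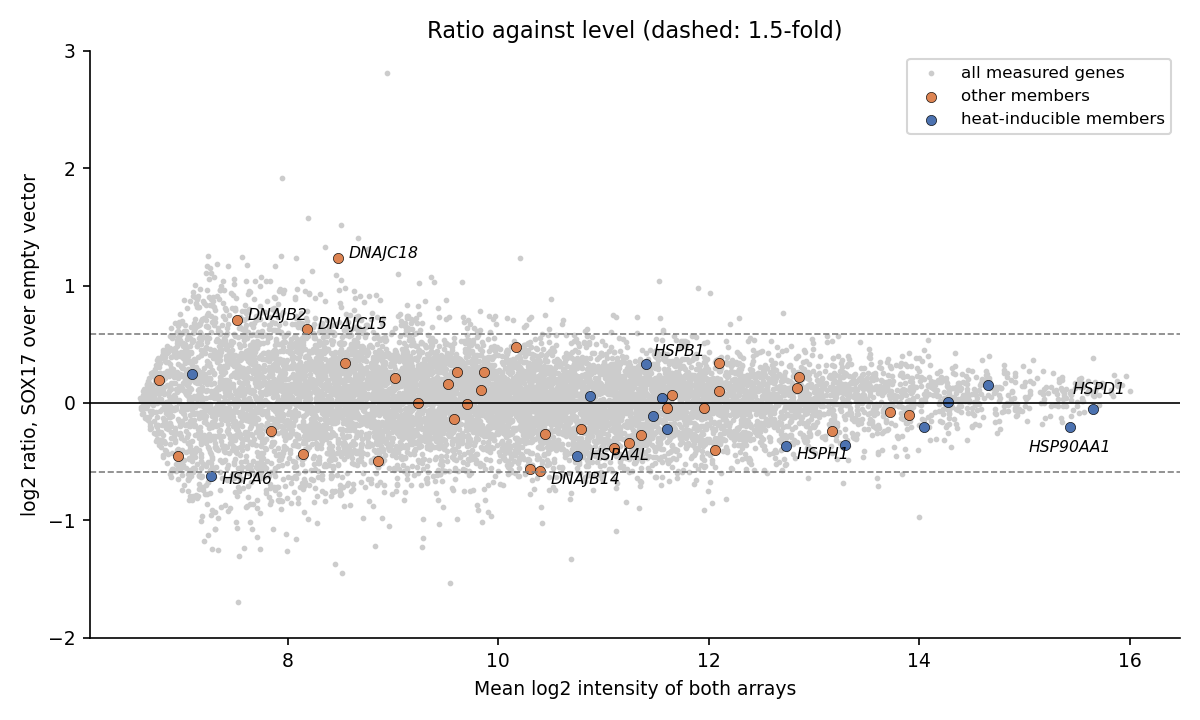
Log2 ratio (SOX17 over empty vector) against the mean log2 intensity of both arrays for all 10034 measured genes (grey), heat-inducible members (blue) and other members (orange), with dashed lines at 1.5-fold. The 4 members past the lines, DNAJC18, DNAJB2, DNAJC15 and HSPA6, lie at the dim end, where the grey cloud is widest.

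A list of 61 genes that are no members was read as well. It holds cofactors such as BAG nucleotide exchange factors and HSP90 cochaperones, and the cytosolic chaperonin and prefoldin. Other chaperones, such as HSPA5, DNAJB9 and HSP90B1, and the factors HSF4 and HSF5 are on it too, so its counts are not about cofactors alone. Of 52 measured, 25 had a ratio above 0 and 27 below, 0 were higher by 1.5-fold or more (3.78% of all measured genes were) and 1 was lower by as much (3.19% were), with a median of -0.01. That gene was SIL1, an exchange factor of the ER HSP70, at 267.5 with the empty vector and 171.4 with SOX17 (log2 ratio -0.64). PFDN1, a prefoldin subunit, read 1693.8 and 2442.5 (0.53). GRPEL2, an exchange factor of mitochondrial HSP70, lay at -0.42 and -0.31 on its 2 probe sets, and HSP90B1, the HSP90 of the ER, at -0.45 and -0.39. The ATPase VCP read 3014 and 2353.6 (-0.36), with -0.02 on its other measured probe set. FKBP4, an HSP90 cochaperone of steroid receptors, read 1835.7 and 1439.2 (-0.35), and its 4 measured probe sets ranged from -0.47 to -0.001. Of the 32 genes of this list with several measured probe sets, 16 had all of them below 0, beside 25.5% of all such genes, and 8 had all above, beside 23.1%.

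The 15 protein-coding members that were not measured comprised 12 below the floor on both arrays and 3, DNAJB5, DNAJC4 and DNAJC28, at or above it on 1 array. None of these reached 2 times the floor (190), so no bound on a fold is given. The 5 noncoding genes were not measured either. Of these DNAJC3-DT, which starts next to DNAJC3, read 84.7 with the empty vector and 159.5 with SOX17, and DNAJB8-AS1, DNAJC27-AS1, DNAJC9-AS1 and HSPA2-AS1 lay below the floor on both.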

How the data were processed

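The authors deposited linear intensities, 1 for each probe set of an array, and the submitters' processing notes name GCOS. Its version and algorithm are not given in the sources used here, and detection calls were not used. The means without the lowest and highest 2% of values were 499.3 and 499, so by the values the arrays had been scaled alike, and they were used as deposited. Per the labels' protocols, Trizol RNA was turned into biotinylated cRNA. Probe sets paired with 1 gene by GEO's platform annotation were kept, and all 71 member symbols were current in RefSeq. The members and gene lists were chosen with earlier results of these data known. Named members are the heat-inducible list, HSF1, CHORDC1, members past 1.5-fold, and per family the brightest, highest and lowest measured ratio. Up to 6 genes of the list of 61 with the largest absolute ratio are named too. Other members named with values were chosen after these were seen, and so were the motifs other than the 3-unit heat shock element. The SD of 1 log2 ratio was pooled over 4574 genes with several measured probe sets. Python 3.11.15, numpy 2.4.6, pandas 2.3.3 and statsmodels 0.14.6 were used, and the counting was tested on simulated data. The simulated noise was smaller than the SD of a ratio here. That test therefore does not show how many unchanged genes pass 1.5-fold on these arrays. Precision is limited by having 1 array in each group.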

Additional observations from a re-analysis of the deposited data

How the results depend on the processing

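No paired analysis was possible because each group had 1 array and no result comes from a test. The alternatives run were quantile normalization, loess (span 0.4), centring on the median ratio, a lower (50th percentile), higher (75th) or absent floor, averaging over a gene's probe sets, dropping probe sets that end in _x_at or _s_at, and 2-fold. The 3 members higher at 1.5-fold were 5 with a floor at the 50th percentile, 0 at the 75th, 8 with no floor, and 1 at 2-fold. The 1 lower member became 3 after centring, 5 with no floor, and 0 with a floor at the 75th percentile or at 2-fold. The number of genes tested differs between floors. Over all genes, no floor gave 4238 higher and 2880 lower, the 50th percentile 670 and 477, the 75th 108 and 135, and 2-fold 42 and 33, against 379 and 320. The median of the measured members stayed between -0.08 and -0.01, that of the ER J-domain genes between -0.28 and -0.14, and that of members without a J domain between -0.22 and -0.09. Of 194 values of the named members 191 moved by less than 0.30, the SD of 1 ratio pooled over all tertiles of level. The other 3 came from leaving out _x_at and _s_at probe sets: HSPH1 then lay at -0.04, DNAJB14 at -0.11 and CHORDC1 at 0.18. The sign turned in 6 of the 194, in 4 genes: DNAJA1 after centring (-0.02), quantile normalization and loess (-0.05 in both), DNAJB1 with the mean over probe sets (0.03), and CHORDC1 and HSPD1 (0.14) without _x_at and _s_at probe sets. Under that setting the small heat shock protein genes gave no value, and the medians of class C J-domain genes (0.15) and of HSF1 and CHORDC1 (-0.13) moved. The medians by compartment and family were put through the alternatives only after the data had been seen.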
